A study of Homo sapiens with 9 samples.

Results

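The mitosis and spindle genes described here are 52 named genes that encode the kinases, cyclins, checkpoint proteins, kinesin motors, kinetochore and spindle proteins, cytokinesis factors and condensin subunits of dividing cells. Binding of Argonaute (Ago), the protein that carries a miRNA to its target RNA, was mapped by Ago-HITS-CLIP, in which Ago is crosslinked to RNA by UV light, immunoprecipitated, and the attached RNA fragments are sequenced. The cells were MDA-MB-231HM, a highly metastatic human triple-negative breast cancer (TNBC) line. They were transfected for 48 h with a synthetic mimic at 20 nM, either of a strand of miR-342 (miR-342-3p and miR-342-5p, separately) or a negative control, with 3 replicates in each of the 3 groups and 9 libraries in total. A transfected mimic brings a miRNA to high levels, so binding was measured under overexpression, in a single cell line. The authors deposited 2 peak lists, of 3450 peaks for miR-342-3p and 5010 peaks for miR-342-5p, both called over the same negative control libraries. A peak was assigned to a gene when its midpoint lay in the gene body on the same strand of hg19. All 52 symbols were found in the annotation, and they contained 20 peaks of the miR-342-3p list and 28 peaks of the miR-342-5p list.

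Each list merges the replicates, so no value per library, no replicate error and no sequencing depth could be given. Every peak carries a score, which the authors describe in terms of reads above background and which is at least 5 in both lists. Scores of the 2 lists come from different libraries and are set side by side, not compared. Intervals and p-values cover counting error only, and several peaks of a single gene are not independent. A gene without a peak may have been unbound or may have been too weakly expressed in these cells to give one, and the lists cannot tell these apart.

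In mitosis, CDK1 with its cyclins drives entry, kinesins and microtubule-binding proteins build the spindle, and kinetochores attach chromosomes to it. The spindle checkpoint holds back the activator CDC20 until all chromosomes are attached, after which separase cleaves cohesin and the cell divides by cytokinesis. A miRNA recognises RNA mainly through its seed, bases 2 to 8 from its 5′ end. A 7mer site pairs with the whole seed (7mer-m8) or with bases 2 to 7 followed by an A (7mer-A1), an 8mer site has both features, and a 6mer pairs with bases 2 to 7 alone. Both mature strands of miR-342 come from a single hairpin and have unrelated seeds, printed in capitals from the RefSeq sequences:
miR-342-3p: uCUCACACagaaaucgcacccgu
miR-342-5p: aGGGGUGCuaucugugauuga
An 8mer site therefore reads GUGUGAGA for miR-342-3p and GCACCCCA for miR-342-5p. The search covered 50 nt on each side of a summit, reading the RNA strand of the peak, and "site" below means a 7mer or an 8mer. Distances run from the summit to the centre of the site.

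The sites below were chosen because each lay under a member peak, and show the sites of the highest peaks first, 5′ to 3′ as RNA with the paired word in capitals. For miR-342-3p, the stretches came from the ANLN 3′UTR (hg19 chr7:36492781-36492810, plus strand), the PRC1 coding sequence (chr15:91524213-91524242, minus strand), the ECT2 5′UTR (chr3:172468582-172468611, plus strand), the KIF4A coding sequence (chrX:69625696-69625725, plus strand) and the KIF20A 5′UTR (chr5:137514834-137514863, plus strand).
ANLN: uaggaggcaauGUGUGAGAcuuggggguuc
PRC1: aaugaagcaguGUGUGAGgggcugcguacu
ECT2: auggcgguauuUGUGAGAggagucggcguu
KIF4A: augcgagaaguGUGUGAGcaaaaucagcag
KIF20A: ucggcgacuagGUGUGAGuaagccaguauc
The ANLN word was the only 8mer among them, and the ECT2 word was the only 7mer-A1.

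For miR-342-5p, the stretches came from the coding sequences of CDC20 (chr1:43824942-43824971, plus strand), NUSAP1 (chr15:41663803-41663832, plus strand), BIRC5 (chr17:76210484-76210513, plus strand), AURKB (chr17:8111087-8111116, minus strand), PRC1 (chr15:91524813-91524842, minus strand), ASPM (chr1:197099057-197099086, minus strand) and CDC25A (chr3:48219405-48219434, minus strand).
CDC20: ccauccccaauGCACCCCcugcgcgcuggc
NUSAP1: cgugucuggggGCACCCCAaaaggcgaggc
BIRC5: gggcugcgccuGCACCCCggagcgggugag
AURKB: aaagagccuguCACCCCAucugcacuuguc
PRC1: gcauuagaccaCACCCCAgacacaagcuuu
ASPM: cugaguauagaCACCCCAcuguuccucacc
CDC25A: uccucuuuuuaCACCCCAgucaccugugac
NUSAP1 held the only 8mer of this set, CDC20 and BIRC5 held 7mer-m8 words, and the other stretches held 7mer-A1 words. The sites of MKI67, which held several, are given with that gene.

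Of the 52 genes, 26 had a peak of either mimic, against 3930 of all 20163 protein-coding genes. A miR-342-3p peak was found in 14 genes and a miR-342-5p peak in 18. In the background of all 20163 protein-coding genes, 11.8% had a miR-342-3p peak and 11.8% had a miR-342-5p peak. Both mimics had a peak in 6 members (AURKB, KIF20A, KIF23, SPAG5, PRC1 and ECT2), where the background share was 4.06%. Among the 3930 protein-coding genes with a peak of either mimic, 60.4% had a miR-342-3p peak and 60.5% had a miR-342-5p peak. Among the 26 members with a peak these were 14 and 18. The members had longer mRNAs than protein-coding genes as a whole, with a median of 3715.5 nt against 2862 nt, and the median was 3990 nt for members with a peak and 3268 nt for those without. The part of length in the counts was not tested. Scores of the member peaks spanned 6 to 272 for miR-342-3p, with a median of 18.5 against 24 over that whole list. They spanned 5 to 176 for miR-342-5p, with a median of 26 against 19 over that whole list.

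**Figure D1:**
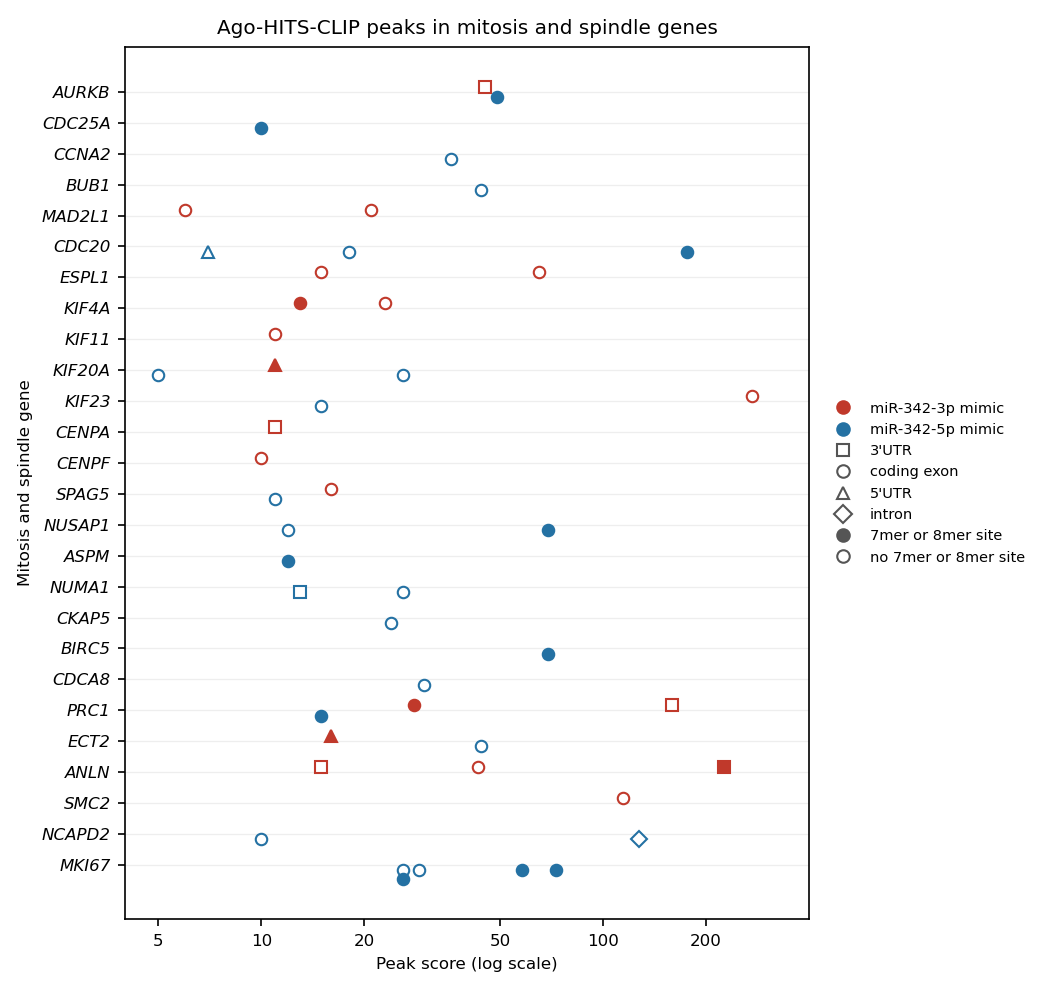
Peak score (log axis) of every Ago-HITS-CLIP peak in the 26 mitosis and spindle genes that had one, with 1 row per gene, ordered by role. Red points are miR-342-3p and blue points miR-342-5p, shapes give the location, and filled points have a 7mer or 8mer site. KIF23 at 272 and ANLN at 226 are the highest miR-342-3p points, and CDC20 at 176 is the highest miR-342-5p point.

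Among the 8 mitotic kinases and their phosphatases, peaks were found in AURKB and CDC25A alone. AURKB, the kinase of the chromosomal passenger complex, had a peak of each mimic. Its miR-342-3p peak scored 45 and lay in the 3′UTR (chr17:8108140-8108203), with its summit 32 nt past the end of the coding sequence and no site. Its miR-342-5p peak scored 49 and lay in coding exon 3 of 9 (chr17:8111065-8111158), with the 7mer 5 nt upstream of the summit. CDC25A, a phosphatase that activates cyclin-dependent kinases, had a single miR-342-5p peak of score 10 in coding exon 7 of 15 (chr3:48219399-48219446), with a 7mer 11 nt downstream of the summit. AURKA, PLK1, TTK, CDK1, CDC25B and CDC25C had no peak.

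Of the 3 mitotic cyclins, CCNA2 (cyclin A2) had a miR-342-5p peak of score 36 in coding exon 1 of 8, and CCNB1 and CCNB2 had none. The genomic window of the CCNA2 peak ran into the first intron and held no site. In the spliced mRNA, however, a 7mer stood 8 nt downstream of the summit, in the next exon. It is shown from mRNA base 461 to 490.
CCNA2: cgagacggguuGCACCCCuuaaggaucuuc
This was the only member peak that gained a site when windows were read on the spliced mRNA, an alternative chosen after the data were seen. The same change was made for all listed peaks with an exonic summit. Their share with a site rose from 30.7% to 32.8% for miR-342-5p and from 19.5% to 21.7% for miR-342-3p. Windows of 11 of the 20 miR-342-3p and 17 of the 28 miR-342-5p peaks crossed an exon junction, which was not counted over the whole lists.

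Among the 8 genes of the spindle checkpoint and the trigger of anaphase, the highest miR-342-5p score of all members was found. CDC20, the activator of the anaphase-promoting complex, had a miR-342-5p peak of score 176 in coding exon 2 of 11 (chr1:43824897-43824987), with the 7mer 1 nt from the summit, at codon 23. The CDC20 peaks of scores 7 (5′UTR) and 18 (coding) flanked it at gaps of 2 and 3 nt and had no site, so the 3 peaks covered a nearly continuous stretch of exon 2. BUB1, a checkpoint kinase, had a coding miR-342-5p peak of score 44 without a site. ESPL1 (separase) had coding miR-342-3p peaks of scores 65 (chr12:53677300-53677322) and 15, neither with a site. MAD2L1, which binds CDC20 in the checkpoint, had coding miR-342-3p peaks of scores 21 and 6, which lay 3 nt apart. BUB1B, BUB3, MAD1L1 and PTTG1 had no peak. Neighbouring peaks at most 10 nt apart made up 2 of the 20 miR-342-3p member peaks and 5 of the 28 miR-342-5p member peaks, against 17.6% and 39.3% of the whole lists.

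Of the 9 kinesin motors, 4 had a miR-342-3p peak and 2 a miR-342-5p peak. These small counts were not tested, and each share over all protein-coding genes was 11.8%. KIF23, a kinesin of the spindle midzone needed for cytokinesis, held the highest miR-342-3p peak of the members. It scored 272 in coding exon 13 of 24 (chr15:69728029-69728098), and 2.87% of that list scored higher. It had no site, but the word UGUGUGA, which pairs with bases 3 to 9 of miR-342-3p, lay 3 nt upstream of the summit. The window is shown (chr15:69728028-69728128, plus strand) because it is the highest of the miR-342-3p member peaks and lacked a site.
KIF23: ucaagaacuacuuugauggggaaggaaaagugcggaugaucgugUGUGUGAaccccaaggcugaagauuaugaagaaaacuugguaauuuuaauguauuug
KIF23 also had a miR-342-5p peak of score 15 in coding exon 20, without a site. KIF4A, a chromosome-bound kinesin, had a miR-342-3p peak of score 13 with a 7mer 4 nt downstream of the summit (chrX:69625678-69625729) and a peak of score 23 with none, both coding. KIF20A had a miR-342-3p peak of score 11 in the 5′UTR (chr5:137514813-137514863), with a 7mer 12 nt downstream of the summit. Its miR-342-5p peaks scored 26 and 5, lay 2 nt apart in coding exon 4 of 19 and had no site, but shared the word AGCACCC, which pairs with bases 3 to 9 of miR-342-5p. KIF11, the kinesin that pushes spindle poles apart, had a coding miR-342-3p peak of score 11 without a site. KIF18A, KIF20B, KIF2C, KIF14 and KIF15 had no peak.

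Of the 6 centromere and kinetochore genes, CENPA and CENPF had a miR-342-3p peak and none had a miR-342-5p peak. CENPA, the histone H3 variant of centromeres, had a peak of score 11 in the 3′UTR (chr2:27016725-27016792), with its summit 143 nt past the coding sequence. CENPF, a large kinetochore protein, had a coding peak of score 10. Neither held a site. CENPE, NDC80, NUF2 and KNL1 had no peak.

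Of the 6 genes of spindle assembly and microtubule binding, 5 had a miR-342-5p peak and SPAG5 alone had a miR-342-3p peak. Over all protein-coding genes, 11.8% had a miR-342-5p peak and 11.8% a miR-342-3p peak. Neither this small count nor any difference between role groups was tested. NUSAP1, which binds and bundles microtubules, had a miR-342-5p peak of score 69 in coding exon 8 of 11 (chr15:41663777-41663839), with the 8mer 2 nt downstream of the summit, and a second coding peak of score 12 without a site. ASPM, a protein of spindle poles, had a miR-342-5p peak of score 12 in coding exon 8 of 28 (chr1:197099051-197099150), with a 7mer 2 nt from the summit. NUMA1, which tethers microtubules at the poles, had a coding peak of score 26 with a 6mer and a peak of score 13 in the 3′UTR (chr11:71714347-71714500), 111 nt past the coding sequence and without a site. The latter was the only miR-342-5p member peak in a 3′UTR. CKAP5, a microtubule polymerase, had a coding peak of score 24 with a 6mer. SPAG5 had coding peaks of score 16 for miR-342-3p (chr17:26925528-26925583) and 11 for miR-342-5p (chr17:26911404-26911450), without sites. TPX2 had no peak. Other annotated genes of the same strand overlap SPAG5, NUSAP1 and PRC1, and reads from them cannot be told apart.

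Of the 3 partners of AURKB in the chromosomal passenger complex, BIRC5 and CDCA8 had a miR-342-5p peak. BIRC5 (survivin) had a peak of score 69 in coding exon 1 of 4 (chr17:76210454-76210508), with the 7mer 5 nt upstream of the summit. CDCA8 (borealin) had a coding peak of score 30 without a match, and INCENP had no peak. With AURKB included, 3 of the 4 genes of the complex had a miR-342-5p peak, each in coding sequence. Over all protein-coding genes, 11.8% had a miR-342-5p peak anywhere in the gene, and this small count was not tested.

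All 3 genes grouped here under cytokinesis had a miR-342-3p peak, against 11.8% of all protein-coding genes. This small count was not tested, and KIF23, also needed for cytokinesis, was counted among the kinesins. ANLN (anillin), a scaffold of the cleavage furrow, had a miR-342-3p peak of score 226 in the 3′UTR (chr7:36492735-36492816), with the 8mer on the summit. It was the only 8mer site among the miR-342-3p member peaks. ANLN also had a coding peak of score 43 with a 6mer and another 3′UTR peak of score 15 (chr7:36492834-36492870) without a match. PRC1, which crosslinks microtubules of the midzone, had a miR-342-3p peak of score 159 in the 3′UTR (chr15:91509343-91509411), 982 nt past the coding sequence and without a site, and a coding peak of score 28 (chr15:91524187-91524257) with a 7mer 3 nt upstream of the summit. Its miR-342-5p peak scored 15 and lay in the preceding coding exon (chr15:91524809-91524863), with a 7mer 14 nt downstream of the summit. ECT2, the exchange factor that activates RhoA at the furrow, had a miR-342-3p peak of score 16 in the 5′UTR (chr3:172468548-172468612), with a 7mer 1 nt from the summit, and a coding miR-342-5p peak of score 44 with a 6mer (chr3:172482159-172482290).

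Among the 5 condensin genes, SMC2 had a coding miR-342-3p peak of score 114 (chr9:106876972-106877055). It had no site, but like KIF23 it held UGUGUGA, 7 nt upstream of the summit (window chr9:106876960-106877060, plus strand).
SMC2: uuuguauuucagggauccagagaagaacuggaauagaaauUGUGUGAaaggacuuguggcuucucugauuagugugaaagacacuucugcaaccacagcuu
NCAPD2 had a miR-342-5p peak of score 127 (chr12:6635329-6635537) that was 209 nt wide. Its midpoint lay in an intron and its summit in exon 20 of 32, with a 6mer 4 nt upstream of the summit. A further NCAPD2 peak of score 10 was coding and had no match. SMC4, NCAPG and NCAPH had no peak.

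MKI67, which encodes Ki-67, a marker of proliferating cells that coats mitotic chromosomes, had 5 miR-342-5p peaks, the most of any member, and no miR-342-3p peak. Their scores were 73 (chr10:129904842-129904912), 58 (chr10:129905945-129906039), 29, 26 (chr10:129907008-129907095) and 26, and all lay in coding exon 13 of 15. This exon encodes the tandem repeats for which Ki-67 is known. The MKI67 coding sequence held 6 miR-342-5p sites, all 7mer-A1, all in exon 13 and all in the same reading frame. Their gaps were 732, 366, 1092, 366 and 1449 nt. Sites 1, 3 and 4 in mRNA order, at codons 1016, 1382 and 1746, each lay within 50 nt of a summit, and those at codons 1260, 1868 and 2351 did not. The bound sites are shown in mRNA order (minus strand, chr10:129907038-129907067, chr10:129905940-129905969 and chr10:129904848-129904877).
MKI67 site 1: gaaccaauaaaCACCCCAacacacacaaaa
MKI67 site 3: gaaucagcagaCACCCCAacaagcacaaga
MKI67 site 4: gaccuaguggaCACCCCAacaagcuccaag
The capitals mark the 7mer, which was the same word in all 3.

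**Figure D2:**
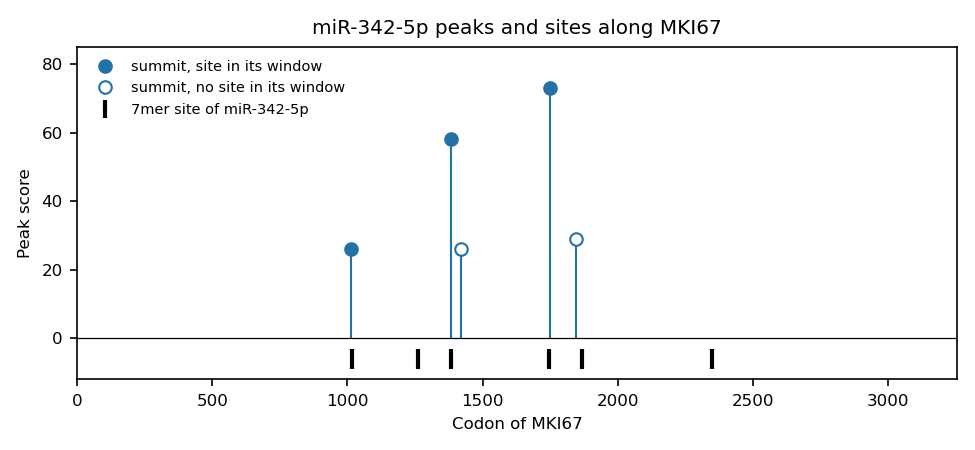
Score of the 5 miR-342-5p peaks of MKI67 against the codon at the summit (filled, a site within 50 nt; open, none), with the 6 coding 7mer sites as black ticks below the axis. Summits stand at 3 of the 6 sites, with scores 26, 58 and 73, and no peak stands over the last site, at codon 2351.

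The members with peaks of both mimics were next examined for shared positions. In these members, no miR-342-3p peak overlapped a miR-342-5p peak. Overlap was not counted over the whole lists, so nothing particular to the members can be read from it. The nearest summits were 152 nt apart along the mRNA in PRC1, 340 nt in KIF20A, 957 nt in AURKB, 1175 nt in KIF23, 1264 nt in ECT2 and 2067 nt in SPAG5. PRC1 was the only member with a site under a peak of each mimic.

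To compare where the mimics bound, peaks were placed on the members' own transcripts. Of the 20 miR-342-3p peaks, 13 lay in coding exons (65%, 95% Wilson interval 43.3 to 81.9), 5 in 3′UTRs (25%, 11.2 to 46.9) and 2 in 5′UTRs. Of the 28 miR-342-5p peaks, 25 lay in coding exons (89.3%, 72.8 to 96.3), 1 in a 3′UTR (3.57%, 0.633 to 17.7), 1 in a 5′UTR and 1 in an intron. Over the whole lists, 34.2% of miR-342-3p and 17.8% of miR-342-5p peaks lay in 3′UTRs, and 55.1% and 70.3% in coding exons. The share in coding exons was 24.3 percentage points higher for miR-342-5p (95% interval 0.693 to 47.1), with p = 0.0700 by two-sided Fisher's exact test (adjusted p = 0.0700 over 6 tests). The share in 3′UTRs was lower by a difference of -21.4 percentage points (-43.5 to -1.66), with p = 0.0692 by the same exact test (adjusted p = 0.0700). Neither difference passed 0.05 among the members. The intron peak, that of NCAPD2, had its summit in a coding exon, and the tests were not repeated with peaks placed by summit. By the same Fisher's exact test the coding difference passed with scores of at least 10 (29.2 percentage points, adjusted p = 0.0487). In the same exact test it was further from passing without MKI67 (22.0 percentage points, adjusted p = 0.148), with peaks placed on transcripts of any gene (25.7 percentage points, adjusted p = 0.0884) and with scores above 50 (23.3 percentage points, adjusted p = 0.5455).

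**Figure D3:**
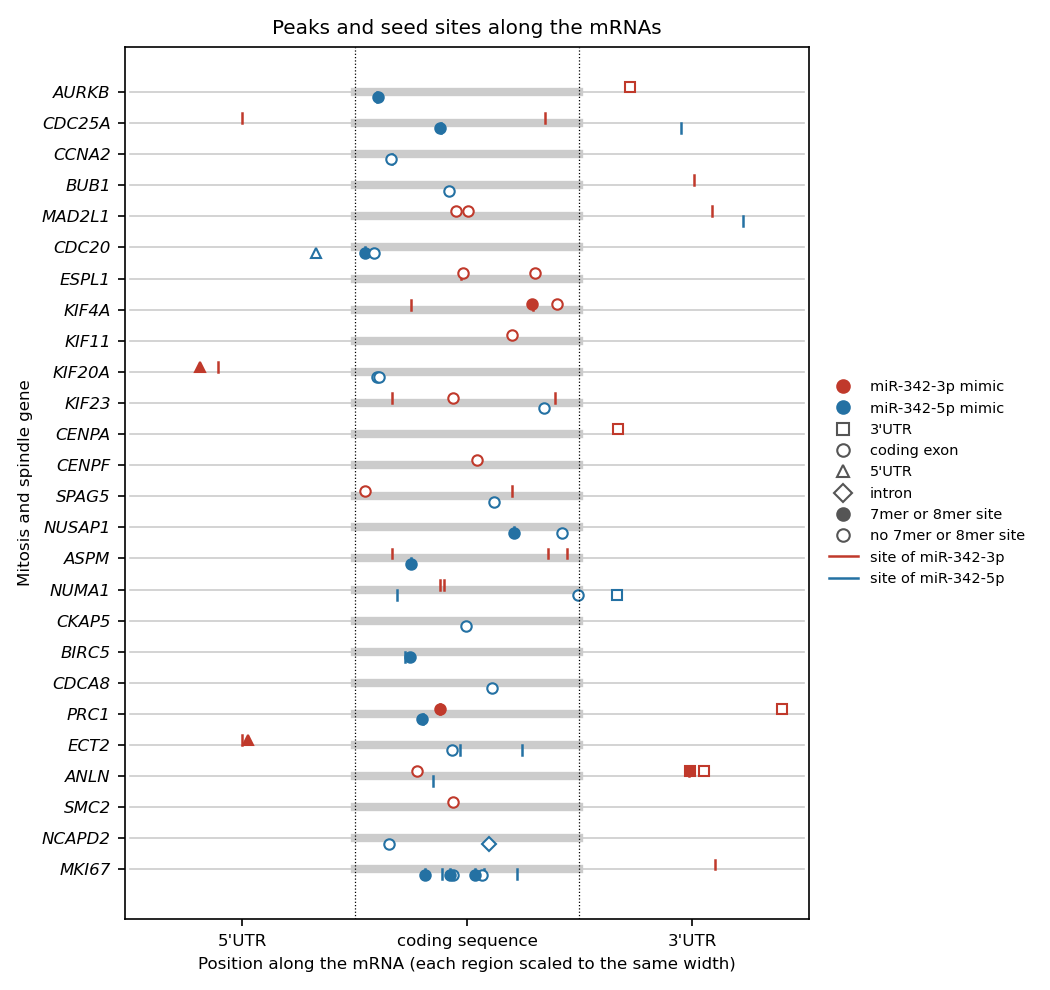
Positions of peak summits (points, shapes and fill as by location and site in the legend) and of 7mer and 8mer sites (ticks) along the mRNA of each of the 26 members with a peak, with 5′UTR, coding sequence and 3′UTR each scaled to the same width. Red is miR-342-3p and blue miR-342-5p. The miR-342-5p points lie in the coding sequence except for the 5′UTR point of CDC20 and the 3′UTR point of NUMA1 (the NCAPD2 diamond is placed by its summit), and 5 miR-342-3p points lie in 3′UTRs.

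Seed sites were then compared between the strands of each window. Of the 20 miR-342-3p member peaks, 5 had a miR-342-3p site (25%, 11.2 to 46.9), against 20.6% of the whole list. These were 1 8mer and 4 7mers, with a further peak holding a 6mer. The other 14 held no match to bases 2 to 7, as did 76.2% of the whole list, but 5 of them held a match to bases 3 to 8. None of the 20 windows had a site on the opposite strand or a miR-342-5p site (upper 95% bound 16.1%). Over the whole miR-342-3p list these shares were 0.638% and 1.16%. The difference in the 20 windows gave p = 0.0625 by exact McNemar test, the smallest that 5 windows can give (adjusted p = 0.0700). Of the 28 miR-342-5p member peaks, 10 had a miR-342-5p site (35.7%, 20.7 to 54.2), against 33.0% of the whole list. These were 1 8mer and 9 7mers, with 4 further peaks holding a 6mer. The other 14 held no match to bases 2 to 7, as did 51% of the whole list, but 3 of them held a match to bases 3 to 8. None of the 28 windows had a site on the opposite strand or a miR-342-3p site (upper bound 12.1%). Over the whole miR-342-5p list these shares were 1.46% and 0.978%. The difference in the 28 windows passed the test (exact McNemar p = 0.00195, adjusted p = 0.00586, for each background). Both whole lists had the same contrast, so it was not particular to the members. All 10 miR-342-5p sites were under coding peaks, in 8 genes, and 3 of them were in MKI67. Without MKI67, 7 of 23 peaks had a site (exact McNemar test, adjusted p = 0.0469). The miR-342-3p sites were under 1 of 5 3′UTR peaks, 2 of 13 coding peaks and both 5′UTR peaks.

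The peaks with a site were not uniformly the highest. Among miR-342-3p member peaks the median score was 16 with a site and 21 without, while over the whole list it was 27.5 and 23. Among miR-342-5p member peaks it was 53.5 with a site and 25 without, and over the whole list 22 and 17. Of the 5 highest miR-342-3p member peaks, that of ANLN had a site, and those of KIF23, PRC1, SMC2 and ESPL1 had no match to bases 2 to 7. Of the 5 highest miR-342-5p member peaks, those of CDC20, NUSAP1, BIRC5 and MKI67 had a site and that of NCAPD2 a 6mer.

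**Figure D4:**
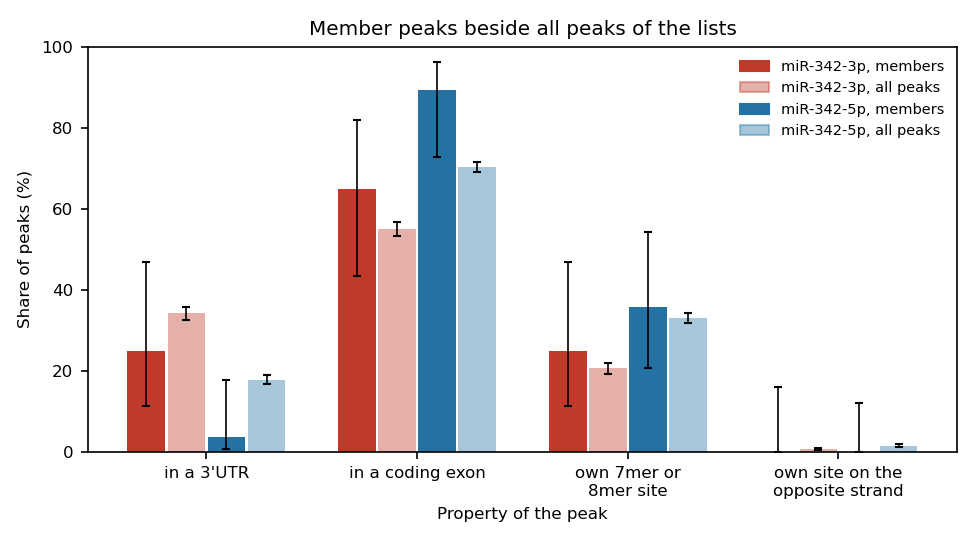
Share of peaks (%) in 3′UTRs, in coding exons, with a 7mer or 8mer site of the list's own miRNA, and with such a site on the opposite strand, with 95% Wilson intervals. Full colours are the 20 miR-342-3p (red) and 28 miR-342-5p (blue) member peaks and pale colours the 3450 and 5010 peaks of the whole lists. The wide intervals of the members reach across the whole-list values for sites, at 20.6% and 33.0%. For location, those of miR-342-3p reach them too. Those of miR-342-5p stop just short, at 17.7% against 17.8% in 3′UTRs and 72.8% against 70.3% in coding exons. Peaks of a single gene are not independent.

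Words shifted along the seed were also counted. UGUGUGA, pairing with bases 3 to 9 of miR-342-3p, was in 5 of the 20 miR-342-3p windows (KIF4A, KIF23, PRC1, ANLN and SMC2) and on the opposite strand of none, against 23% of the whole list on the strand of the peak. In KIF4A, PRC1 and ANLN it overlapped the site. AGCACCC, pairing with bases 3 to 9 of miR-342-5p, was in 3 of the 28 miR-342-5p windows (AURKB and both peaks of KIF20A), against 8.02% of the whole list. Repeats of G and U, which can resemble miR-342-3p sites, ran for at most 9 nt in the miR-342-3p member windows, whereas 216 peaks of the whole list (6.26%) held a run of at least 20 nt.

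Sites in the mRNAs were then examined from the other side, asking which had a summit within 50 nt. The annotated mRNAs of the 52 members held 6 miR-342-3p sites in 3′UTRs, and ANLN alone had a peak over its site. BUB1, KIF20B, KNL1, MAD2L1 and MKI67 each had such a site without a peak. Of 21 coding miR-342-3p sites, those with a peak were the 2 of KIF4A and PRC1 (9.52%). Of 3 5′UTR sites, those of ECT2 and KIF20A had a peak and an 8mer of CDC25A had none. Over all protein-coding genes, 4.74% of 3′UTR and 6.68% of coding miR-342-3p sites had a peak. Among the 26 members with a peak of either mimic, 1 of 4 3′UTR sites and 2 of 13 coding sites had one, and in all genes with a peak of either mimic these shares were 17.2% and 24.7%. For miR-342-5p, 10 of the 24 coding sites of the 52 members had a peak (41.7%), against 15.2% over all protein-coding genes. In the members with a peak of either mimic it was 10 of 18 (55.6%), against 45.6% in all genes with one, and 3 of the 10 were in MKI67. None of the 5 miR-342-5p sites in 3′UTRs (AURKA, CDC25A, MAD2L1 and 2 in BUB3) had a peak, against 6.44% over all protein-coding genes. CDC25A and MAD2L1 were the members with a peak among these, and in all genes with a peak of either mimic the share was 23.4%. These shares are descriptions, and no difference between them was tested. The site of CCNA2 beyond the exon junction counts here as one without a peak. ESPL1 had a coding miR-342-3p 7mer at chr12:53677253-53677259, upstream of its peak of score 65 and outside the window.

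**Figure D5:**
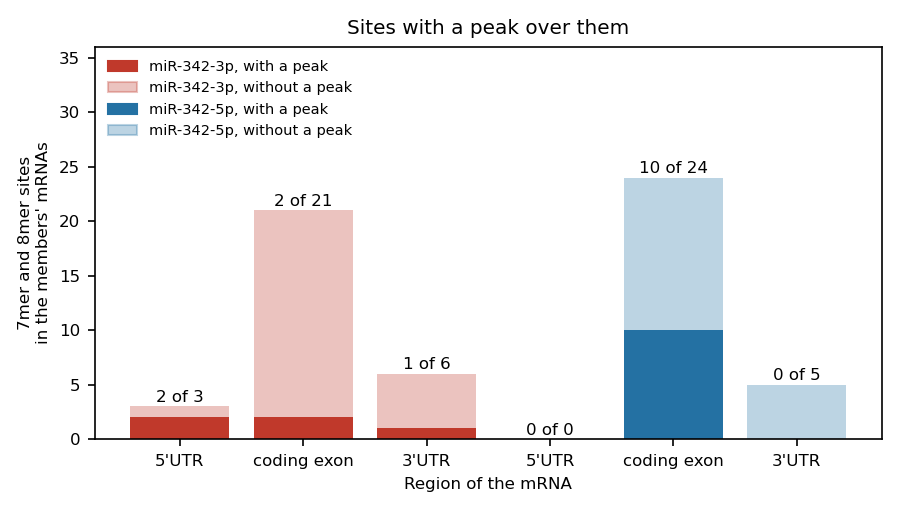
Number of 7mer and 8mer sites in the mRNAs of the 52 members by region (bars), with the sites that have a summit of the matching list within 50 nt in full colour. Coding sites with a peak number 10 of 24 for miR-342-5p and 2 of 21 for miR-342-3p, and 3′UTR sites 0 of 5 and 1 of 6.

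A further 139 genes of mitosis were counted in the same way. Of these, 24 (17.3%) had a miR-342-3p peak, 25 (18%) a miR-342-5p peak and 8 both, while 98 had neither. The shares over all protein-coding genes were 11.8%, 11.8% and 4.06%, and the subgroups below are small counts that were not tested. A miR-342-5p peak was found in 5 of 17 genes of the anaphase-promoting complex and a miR-342-3p peak in 1. Of 31 other kinetochore genes, 3 had a miR-342-3p and 2 a miR-342-5p peak. Cohesin and its regulators had 3 and 5 of 15, and centrosome and γ-tubulin genes 3 and 3 of 26. Condensin II had 1 and 1 of 3, other regulators of mitotic entry and exit 5 and 4 of 23, and other spindle and cytokinesis proteins 8 and 5 of 24. The highest miR-342-3p scores were those of CLTC (218, coding, no site), NCAPD3 (136, coding, 7mer) and DYNC1H1 (104, coding, no site). The highest miR-342-5p scores were those of UBE2C (494, coding, 7mer), the ubiquitin-conjugating enzyme of the anaphase-promoting complex, DYNC1H1 (202, coding, no site) and RAD21 (159, 3′UTR, 8mer).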

How the data were processed

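The authors mapped reads to hg19 with TopHat2 2.0.13, after cutadapt 1.13 and with UMI-tools (per the submitters' processing notes), applied a Samtools quality filter and ran MACS2 2.1.1.20160309 on each miR-342 mimic with the negative control as background. The deposited lists give a score per peak of at least 5. How libraries were scaled is not given in the sources used here. Replicates are merged, so depth per sample is unknown.

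Peaks were placed by midpoint and strand on GENCODE release 44 mapped to GRCh37, and a midpoint in several kinds of sequence counted as 3′UTR first, then as coding, 5′UTR, non-coding exon or intron. Members used their own transcripts. Distances along an mRNA and sites in mRNAs used 1 transcript per gene. Coordinates are 1-based. Mature miRNAs came from the RefSeq table for GRCh38.p14 and target stretches from the GRCh37 genome. Locations were compared by two-sided Fisher's exact tests with Newcombe intervals, and sites by two-sided exact McNemar tests, with Benjamini-Hochberg adjustment over 6 tests. For an alternative setting, its p-value took the place of the main one among the 6, and the others were kept from the main setting. The opposite strand and the other miR-342 strand were the backgrounds. Python 3.11.15, scipy 1.17.1, pandas 2.3.3, pysam 0.24.0, samtools 1.23.1 and matplotlib 3.10.9 were used, and the steps were tested on simulated data.

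The members and lists were chosen with earlier results of these data known. Every member is accounted for, with detail for the 5 highest peaks per list, 3′UTR peaks, peaks with a site and members bound by both mimics. In the further list, genes with the 3 highest scores are named. Alternatives were other score minimums, location rules, windows, site types and 1 peak per gene. Own transcripts for location, leaving out MKI67 and spliced windows were chosen after seeing the data.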

Additional observations from a re-analysis of the deposited data

How the results depend on the processing

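Of 49 alternative values, 42 kept their direction and their side of 0.05, or stayed within 1.5 times the count, and 0 reversed. With 8mers alone, the miR-342-5p excess of sites over each background was 3.57 percentage points and no longer passed (exact McNemar test, adjusted p = 1), since a single window remained. With scores of at least 10, the coding difference was 29.2 percentage points and passed. With scores above 50, 5 members had a miR-342-3p peak and 5 a miR-342-5p peak, and with scores above 100 these were 4 and 2. With only the highest peak of each member, the coding difference was 37.3 percentage points (Fisher's exact test, adjusted p = 0.0531) and the 3′UTR difference -28.6 (adjusted p = 0.0557). No paired analysis was possible because the lists merge the replicates and carry no replicate numbers, and for the same reason no replicate could be left out. Depth is unknown, so weak binding in members without a peak was not detectable in these lists.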
